A study of Mus musculus with 9 samples.

Results

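Spermatogonial regulators are genes known in the mouse for the upkeep of spermatogonial stem cells or for the differentiation of spermatogonia, the mitotic germ cells that precede meiosis. The set of 10 genes was chosen by symbol (Zbtb16, Gfra1, Ret, Id4, Kit, Sohlh1, Sohlh2, Dmrt1, Dmrtb1 and Uchl1), and all 10 were found among the 21877 NCBI genes and 50493 features of the tables. They were followed in 3 later kinds of germ cell from the testis of wild-type (WT) mice: pachytene spermatocytes (PAC), which pair and recombine their chromosomes; round spermatids (RS), which are haploid and build the acrosome; and elongating spermatids (ES), in which the nucleus is compacted and the sperm head and tail take shape. Each cell type had 3 libraries of total RNA depleted of ribosomal RNA. The submitters call them biological replicates, but the sources used here do not give the age or number of the mice or the way the cells were isolated, so p-values measure the spread between these libraries. No library of spermatogonia was analysed here, so levels cannot be set against those of the cells in which these genes are best known.

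In the mouse testis, Sertoli cells secrete GDNF, which binds the co-receptor GFRA1 and signals through the receptor tyrosine kinase RET to keep spermatogonial stem cells renewing. The repressor ZBTB16 (PLZF) and the HLH inhibitor ID4 act in the same undifferentiated cells, and the ubiquitin hydrolase UCHL1 is widely used as their marker. Under retinoic acid, spermatogonia turn on the receptor KIT and the bHLH factors SOHLH1 and SOHLH2, while DMRT1 and DMRTB1 (also called DMRT6) control when mitosis gives way to meiosis.

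Promoter sequence was taken from RefSeq (GRCm38.p6) as the 250 bases before an annotated start, on the strand of the gene. It was held for 7 of the 10 members, in 9 windows, and those of Zbtb16, Ret and Dmrt1 were not used here. The windows of 4 genes are shown, those in which all libraries of a cell type lay above all others. Id4 and Dmrtb1 were highest in PAC, Gfra1 in RS and Uchl1 in ES, although PAC and RS overlapped for Uchl1. Dmrt1, without a window, was also highest in ES with no overlap between cell types. Capitals mark each match, on either strand, to the E-box CANNTG, the general site of bHLH factors, or to the cAMP response element half-site TGACG, which is read as CGTCA on the other strand.
Id4, chr13:48260866-48261115, plus strand: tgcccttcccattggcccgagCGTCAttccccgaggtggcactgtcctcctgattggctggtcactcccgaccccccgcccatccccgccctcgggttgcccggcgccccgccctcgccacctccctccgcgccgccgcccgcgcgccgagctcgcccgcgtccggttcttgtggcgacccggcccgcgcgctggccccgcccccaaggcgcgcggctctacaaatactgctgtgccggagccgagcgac
Dmrtb1 downstream start, chr4:107683590-107683839, minus strand: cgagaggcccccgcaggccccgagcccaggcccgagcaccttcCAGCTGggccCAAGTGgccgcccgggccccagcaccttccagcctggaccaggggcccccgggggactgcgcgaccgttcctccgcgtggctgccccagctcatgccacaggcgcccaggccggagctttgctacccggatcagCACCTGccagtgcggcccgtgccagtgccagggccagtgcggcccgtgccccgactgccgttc
Dmrtb1 upstream start, chr4:107684231-107684480, minus strand: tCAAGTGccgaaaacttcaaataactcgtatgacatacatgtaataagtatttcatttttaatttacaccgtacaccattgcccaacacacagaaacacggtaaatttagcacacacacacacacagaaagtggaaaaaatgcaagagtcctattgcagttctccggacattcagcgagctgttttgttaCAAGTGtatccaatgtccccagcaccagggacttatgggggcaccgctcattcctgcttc
Gfra1, chr19:58455399-58455648, minus strand: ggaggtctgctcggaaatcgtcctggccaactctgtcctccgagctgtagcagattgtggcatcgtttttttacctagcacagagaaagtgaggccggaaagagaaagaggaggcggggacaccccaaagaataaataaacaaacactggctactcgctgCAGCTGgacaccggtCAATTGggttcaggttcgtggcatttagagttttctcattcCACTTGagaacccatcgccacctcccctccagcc
Uchl1, chr5:66675871-66676120, plus strand: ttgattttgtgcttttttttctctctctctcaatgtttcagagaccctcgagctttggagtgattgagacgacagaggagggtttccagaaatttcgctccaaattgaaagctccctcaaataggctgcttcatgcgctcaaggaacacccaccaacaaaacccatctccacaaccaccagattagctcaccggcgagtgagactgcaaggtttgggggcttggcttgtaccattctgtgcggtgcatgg

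These windows differed in composition and in the letters searched. The Id4 window was 75.6% G and C, with 1 half-site and no E-box. The windows of Dmrtb1 were 75.6% G and C at the downstream start and 42.4% at the upstream start, and held 3 and 2 E-boxes. Both lie inside the RefSeq span of this minus-strand gene, which begins at chr4:107704011, and no window was held for that outermost end. The Gfra1 window (52.4% G and C) held 3 E-boxes, and the Uchl1 window (48.8%) held neither motif. Like those of Dmrtb1, the Gfra1 window lies inside the RefSeq span of its minus-strand gene. That span begins at chr19:58455946, and no window was held for its outermost end. Among the members not shown, Sohlh1 held 5 E-boxes, Sohlh2 held 1 E-box that overlapped 1 of its 2 half-sites, and both windows of Kit held neither. Of all 32851 RefSeq windows of this length, 66.2% held an E-box and 17.8% the half-site, so an E-box is common at any start. A match describes the letters and not a bound site.

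The libraries held 22910156 to 33801617 counts each. Values below are CPM, counts scaled to a common library total with edgeR's TMM factors, and 3 counts in a library came to between 0.0888 and 0.131 CPM. ES replicate 1 stood apart, with the lowest factor (0.758) and the highest summed CPM of 9 elongating spermatid markers (72397, against 43744 in the lowest ES library). Sums of the markers followed the labels: 10 pachytene markers summed to 2415 to 2615 CPM in PAC and 1035 to 1084 in RS, and the elongating spermatid markers to 2185 to 3033 in PAC and 15612 to 17722 in RS. The exception was the sum of 9 round spermatid markers, which was highest in ES (3452 to 4092 CPM, against 2218 to 2374 in RS), although 6 of the 9 genes fell from RS to ES. Tssk6 alone averaged 626 CPM in RS and 2701 in ES, and so made up most of the ES sum. Markers of somatic cells of the testis were present too. The 14 Sertoli cell markers summed to 64.4 to 161 CPM in PAC, 55.5 to 60.8 in RS and 460 to 559 in ES, and Amh and Fshr had no count in RS. Amhr2 alone averaged 40.0, 47.7 and 186 CPM in PAC, RS and ES, and so made up most of the RS sum. It was the tested Sertoli cell marker that did not fall from PAC to RS. The 9 Leydig cell markers summed to 106 to 143 CPM in PAC, 2.10 to 2.25 in RS and 19.7 to 26.3 in ES, with Lhcgr at 0 in RS. The 13 macrophage and blood markers summed to 6.25 to 8.27, 19.6 to 23.8 and 143 to 226 CPM, and the 10 peritubular and vascular markers to 6.10 to 7.68, 14.95 to 24.9 and 21.9 to 26.1 CPM, with Col1a1 at 0 in PAC.

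Dmrtb1 was by far the most abundant member in every cell type. Levels between genes were compared in FPKM, the authors' values per length of gene and per depth. Dmrtb1 averaged 329.9 FPKM in PAC, 229.8 in RS and 115.6 in ES, which ranked it 218th, 513th and 828th among the NCBI genes. Of the summed FPKM of the 10 members it held between 83.4% and 86.3% in PAC libraries, 89.5% and 90.04% in RS, and 80.9% and 84.1% in ES. Below it the other members spanned a wide range. Id4 (46.1 FPKM) and Gfra1 (6.03 FPKM) followed in PAC, Gfra1 (17.6) and Id4 (3.49) in RS, and Id4 (8.03) and Gfra1 (6.40) in ES. The ranges of Id4 and Gfra1 overlapped in ES but not in PAC or RS.

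Dmrt1, Sohlh2, Uchl1 and Sohlh1 lay between 0.724 and 3.88 FPKM on average in each cell type. In PAC the ranges of Dmrt1, Sohlh2 and Uchl1 overlapped one another, as did those of Uchl1 and Sohlh1. In RS the ranges of neighbours in the order Sohlh2, Uchl1, Dmrt1, Sohlh1, Kit overlapped, and in ES those in the order Gfra1, Uchl1, Dmrt1, so the order of these neighbours is not resolved. Kit averaged 0.435 FPKM in PAC, 0.333 in RS and 0.224 in ES, below the median NCBI gene in each. Zbtb16 (0.0977, 0.0210 and 0.0800 FPKM) and Ret (0.0473, 0.0430 and 0.0237 FPKM) were the lowest 2 members throughout. Their ranges did not overlap in PAC (0.0750 to 0.118 FPKM for Zbtb16, 0.0370 to 0.0540 for Ret) and did in RS and ES.

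**Figure D1:**
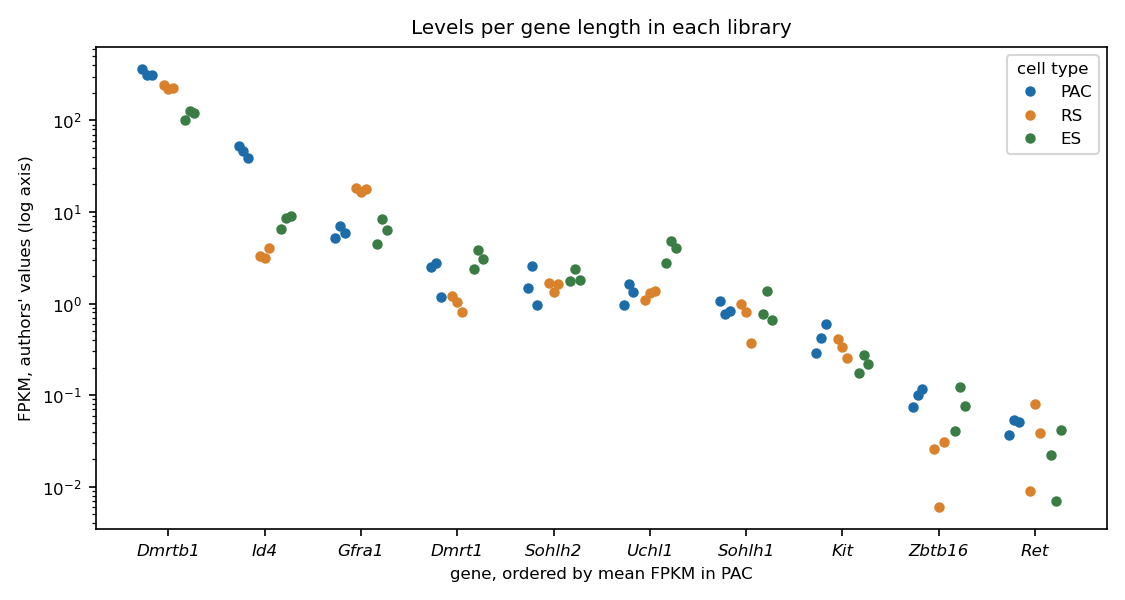
Level of each of the 10 genes as FPKM on a log axis, 1 point per library and colours for PAC, RS and ES. Dmrtb1 lies at or above 99.8 FPKM in all 9 libraries, while Zbtb16 and Ret lie at or below 0.122 FPKM in all of them.

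For differences between cell types, each feature was tested with edgeR's quasi-likelihood test and called at a Benjamini-Hochberg adjusted p below 0.05 over 26030 features. All 10 members passed the filter on low counts. From PAC to RS, 1 member rose (Gfra1) and 4 fell (Zbtb16, Id4, Dmrt1 and Dmrtb1), where 38.2% of all features tested were higher and 34.2% lower. From RS to ES, 4 rose (Zbtb16, Id4, Dmrt1 and Uchl1) and 2 fell (Gfra1 and Dmrtb1), against 24.5% and 22.1% of all features. Between PAC and ES, 2 were higher in ES (Dmrt1 and Uchl1) and 2 lower (Id4 and Dmrtb1), against 30.6% and 33.7%. Beside that background the counts say little about the set, and the results are those of single genes. The median log2 change of all features tested was 0.11 from PAC to RS, 0.05 from RS to ES and -0.09 from PAC to ES. Among the 15031 NCBI genes tested, the kind of feature that the members and the gene lists below hold, it was -0.46, 0.18 and -0.38. Of these genes, 26.5% rose and 46.8% fell from PAC to RS, 31.6% rose and 21.8% fell from RS to ES, and 25.1% were higher and 42.5% lower in ES than in PAC.

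**Figure D2:**
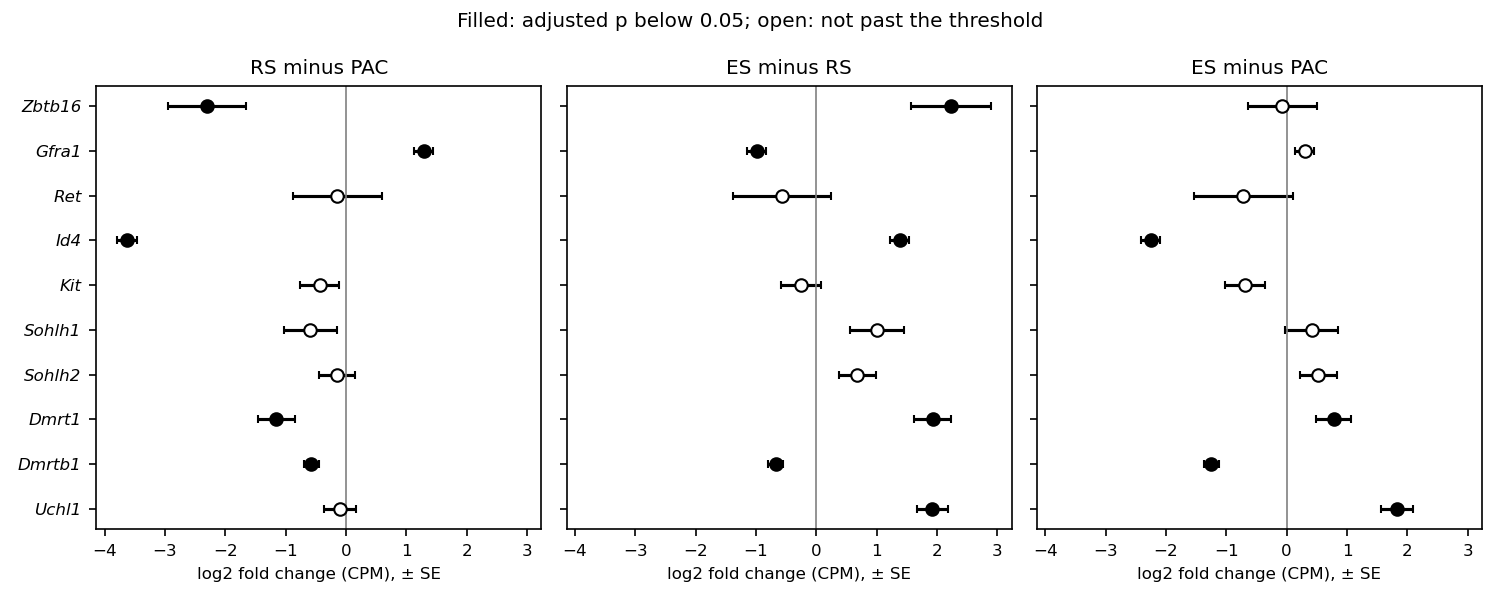
Log2 fold change of each gene in the 3 comparisons with its standard error, filled where the adjusted p was below 0.05. Id4 has the largest fall, at -3.63 from PAC to RS, and Gfra1 is the 1 gene that rose in that step.

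Of the GDNF receptor pair, the co-receptor rose in round spermatids and the kinase was barely detected. Gfra1 (NCBI gene 14585; chr19:58235581-58455946, minus strand) was at 9.70, 10.8 and 9.95 CPM in PAC, 26.1, 23.8 and 24.4 in RS, and 10.9, 14.9 and 11.6 in ES (replicates 1, 2 and 3). Every RS library lay above every other library, and the ES libraries lay just above those of PAC. The rise from PAC to RS was 2.44-fold (log2 1.29, SE 0.16, adjusted p = 2.78e-05), and the fall from RS to ES was -0.99 on the log2 scale (SE 0.16, adjusted p = 0.000412). In bulk RNA, a change in the number of cells of a type and a change in RNA per cell cannot be told apart, here or for the other members. ES exceeded PAC by a log2 difference of 0.30 (SE 0.16), which did not pass (adjusted p = 0.122). That difference depended on the scaling: it passed with DESeq2's size factors (0.38, adjusted p = 0.0490) and with upper-quartile factors (0.60, adjusted p = 0.00533). It also passed when the fit was limited to NCBI genes, and without ES replicate 1 (0.39, adjusted p = 0.04995).

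Ret (19713; chr6:118151748-118197744, minus strand), the signalling receptor, had 8, 10 and 10 counts in PAC, 2, 20 and 9 in RS and 4, 1 and 7 in ES. Its RS range held all of the PAC values, and RS replicate 2 had the highest count of all. No difference passed: the log2 changes were -0.14 (SE 0.74, adjusted p = 0.867) from PAC to RS, -0.57 (SE 0.81, adjusted p = 0.592) from RS to ES and -0.72 (SE 0.82, adjusted p = 0.460) from PAC to ES. A change the size of the Gfra1 rise (log2 1.29) came to less than 2 of these standard errors, so it could not be resolved at this depth. In FPKM, Gfra1 stood above Ret by 115 to 142 times in PAC libraries, 206 to 2005 times in RS and 153 to 1182 times in ES, where the wide spans follow from the few Ret reads.

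The other GDNF genes did not move as one. Of 17 ligands, co-receptors and target genes, 12 were tested: 3 rose and 4 fell from PAC to RS (median log2 -0.38), 6 rose and 2 fell from RS to ES (0.44), and 5 were higher and 4 lower in ES than in PAC (-0.05). Gfra2, the neurturin co-receptor, was at 9.95 ± 2.70 CPM in PAC, 21.7 ± 1.41 in RS and 62.4 ± 8.98 in ES (SD, n = 3 here and below), and rose in both steps (log2 1.13, adjusted p = 0.000379, and 1.52, adjusted p = 9.34e-05). Gfra4, the persephin co-receptor, went the other way from PAC (27.2 ± 3.47 CPM) to RS (8.92 ± 0.631) and stood at 13.0 ± 0.663 in ES. Of the co-receptors, Gfra1 and Gfra2 rose from PAC to RS while Gfra4 fell (log2 -1.61, adjusted p = 4.11e-06). Egr4, a GDNF-responsive transcription factor gene, fell from 26.9 ± 3.76 CPM in PAC to 2.91 ± 0.357 in RS (log2 -3.21, adjusted p = 2.77e-07). Ncam1, an alternative GDNF receptor, was at 17.2 ± 4.46, 13.1 ± 0.284 and 16.7 ± 1.70 CPM and passed in no comparison. Of the genes not tested, Pspn, which encodes persephin, had no count in any library, and the highest count in a library was 2 for Gfra3 and 11 for Etv4.

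Id4 showed the largest fold change between cell types among the members. Id4 (15904; chr13:48261116-48266028, plus strand) encodes an HLH protein without a DNA-binding region that binds and inhibits E proteins. It was at 100.9, 84.9 and 74.2 CPM in PAC, 6.36, 6.83 and 7.80 in RS, and 16.5, 18.3 and 19.8 in ES. No 2 cell types overlapped, with PAC highest and RS lowest. It was 12.4-fold lower in RS than in PAC (log2 -3.63, SE 0.17, adjusted p = 3.91e-08), rose 2.60-fold from RS to ES (log2 1.38, SE 0.16, adjusted p = 4.62e-05), and stayed 4.77-fold lower in ES than in PAC (log2 -2.25, SE 0.16, adjusted p = 6.59e-07).

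The most abundant genes for its relatives and E-protein partners (Id2, Tcf3, Tcf4 and Tcf12) had lower mean FPKM than Id4 in each cell type. Of 6 other ID and E-protein genes, 5 were tested: none rose and 2 fell from PAC to RS (median log2 -0.40), 2 rose and none fell from RS to ES (0.45), and 1 was higher and 2 lower in ES than in PAC (-0.55). The E-protein gene Tcf3 was at 3.79 ± 0.844 CPM in PAC, 0.983 ± 0.527 in RS and 4.33 ± 0.779 in ES, falling (log2 -1.94, adjusted p = 0.000747) and then rising (2.14, adjusted p = 0.000831). Tcf4 fell from 13.5 ± 1.95 CPM in PAC to 4.68 ± 0.767 in RS (log2 -1.53, adjusted p = 8.74e-05). Tcf12 (10.6 ± 0.936, 8.05 ± 1.64 and 7.26 ± 1.67 CPM) passed only between PAC and ES (log2 -0.55, adjusted p = 0.0427), and Id2 was at or below 1.42 CPM in every library, rising from RS to ES (log2 1.55, adjusted p = 0.0291).

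**Figure D3:**
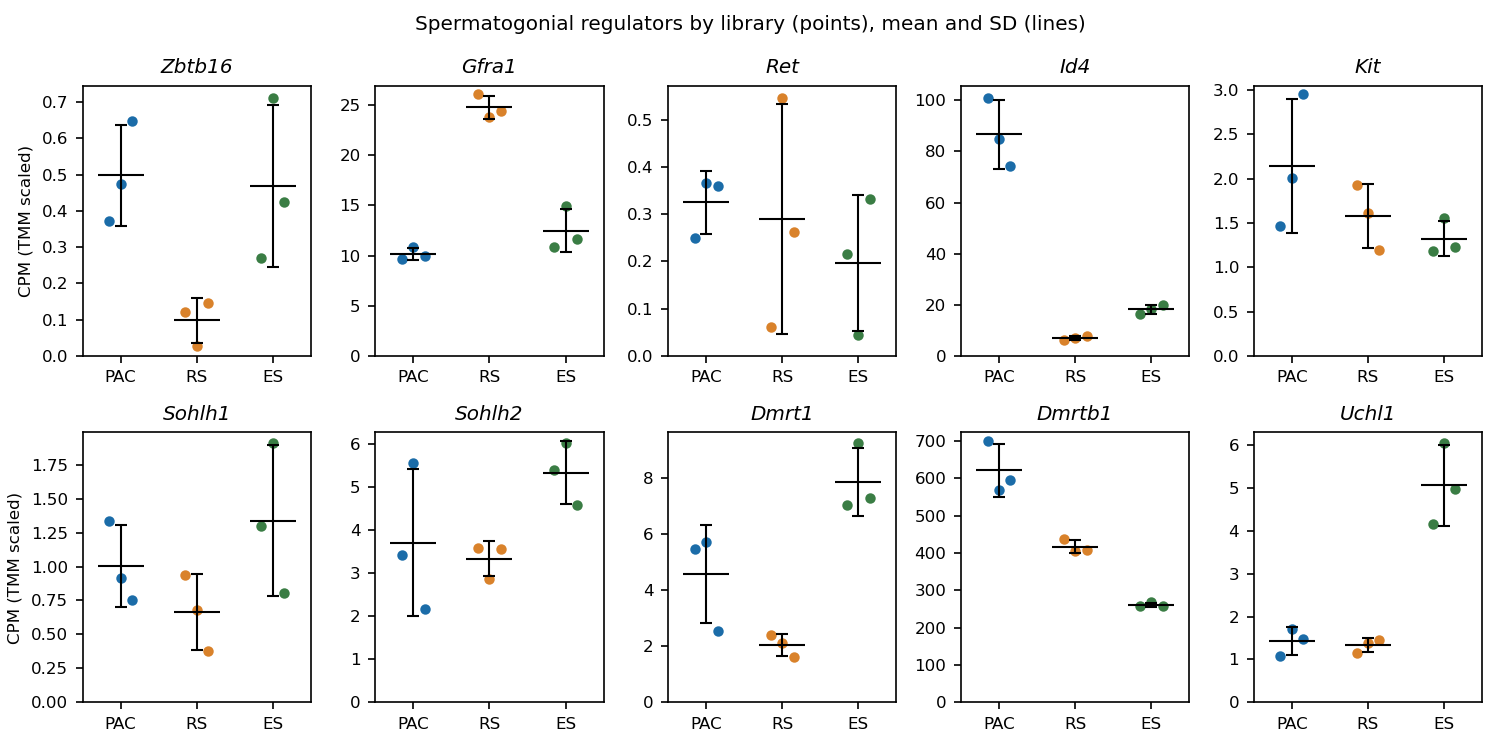
CPM of each gene in every library, 1 panel per gene on its own axis from 0, with the mean and SD of each cell type. The RS points lie above all others for Gfra1 and below all others for Id4, Zbtb16 and Dmrt1, and the ES points lie above all others for Uchl1.

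Zbtb16 (235320; chr9:48651797-48836225, minus strand), whose protein represses differentiation genes in stem spermatogonia, was near the floor. It had 12, 13 and 18 counts in PAC, 4, 1 and 5 in RS, and 5.15, 16 and 9 in ES, or 0.373, 0.475 and 0.649 CPM, 0.121, 0.0273 and 0.146 CPM, and 0.270, 0.711 and 0.426 CPM. All RS libraries lay below all others, and PAC overlapped with ES. The fall from PAC to RS was -2.31 on the log2 scale (SE 0.65, adjusted p = 0.00735) and the rise from RS to ES was 2.24 (SE 0.66, adjusted p = 0.0161). The rise rested on few reads: it did not pass without RS replicate 2 (log2 1.78, adjusted p = 0.0729), without ES replicate 2 (1.81, adjusted p = 0.0856), or in limma on FPKM with pseudocount 0.1 (0.55, adjusted p = 0.145). The fall kept its direction but did not pass on FPKM with pseudocount 0.1 (-0.71, adjusted p = 0.0501). The log2 difference between ES and PAC was -0.07 (SE 0.58, adjusted p = 0.922).

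Most genes that define undifferentiated spermatogonia were at or near 0. Of 19 others on the list, 10 had too few reads to test, among them the RNA-binding regulator Nanos2 (at most 2 counts in a library and none in RS or ES), Pax7 (at most 1) and Neurog3 (at most 2). Of the 9 tested, 1 rose and 5 fell from PAC to RS (median log2 -2.13), 5 rose and none fell from RS to ES (1.36), and 2 were higher and 1 lower in ES than in PAC (-0.32). Itga6, a laminin receptor subunit, was at 5.45 ± 0.986 CPM in PAC, 1.24 ± 0.401 in RS and 5.69 ± 1.04 in ES, and its fall (log2 -2.13, adjusted p = 3.95e-05) and rise (2.19, adjusted p = 8.23e-05) passed. The adhesion gene Epcam was at 17.0 ± 1.97, 14.8 ± 1.91 and 13.0 ± 0.994 CPM, the transcription cofactor gene Taf4b at 8.16 ± 0.840, 7.23 ± 0.777 and 10.8 ± 0.592, and Rarg, the retinoic acid receptor of undifferentiated cells, at 1.77 ± 0.786, 1.19 ± 0.251 and 1.07 ± 0.158. Of these last 3, Taf4b rose from RS to ES (log2 0.58, adjusted p = 0.0137) and was higher in ES than in PAC (0.41, adjusted p = 0.0493), and the other two passed in no comparison.

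Uchl1 rose from RS to ES. The gene (NCBI gene 22223; chr5:66676121-66687234, plus strand) was at 1.09, 1.72 and 1.48 CPM in PAC, 1.14, 1.39 and 1.46 in RS, and 4.16, 6.04 and 4.97 in ES. All ES libraries lay above all others, and the RS values lay within the PAC range. The rise from RS to ES was 3.79-fold (log2 1.92, SE 0.26, adjusted p = 0.000128) and ES was 3.55-fold above PAC (log2 1.83, SE 0.26, adjusted p = 8.37e-05). Between PAC and RS the log2 difference was -0.09 (SE 0.27, adjusted p = 0.759). In FPKM the 3 tested UCH deubiquitinase genes, Uchl3, Uchl5 and Bap1, stood above Uchl1 in each cell type, with Uchl3 at 108.7 in ES against 3.88 for Uchl1, while Uchl4 was not tested and had no count in RS or ES. Uchl3 was at 262 ± 30.6 CPM in PAC, 210.1 ± 6.08 in RS and 116 ± 8.99 in ES, and fell in the later step (log2 -0.85, adjusted p = 0.000267). Bap1, a histone H2A deubiquitinase, was at 105 ± 10.03, 132 ± 1.52 and 56.2 ± 6.79 CPM and fell too (log2 -1.23, adjusted p = 3.07e-05), while Uchl5, of the proteasome, was at 30.2 ± 2.34 in RS and 34.7 ± 9.33 in ES (log2 0.20, adjusted p = 0.476). Of 4 such genes, 3 were tested: 1 rose and 2 fell from PAC to RS (median log2 -0.32), none rose and 2 fell from RS to ES (-0.85), and none was higher and 2 were lower in ES than in PAC (-0.90).

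The genes of differentiating spermatogonia, Kit, Sohlh1 and Sohlh2, were low and passed in none of the 3 comparisons. Kit (16590; chr5:75574987-75656722, plus strand), the receptor of stem cell factor, was at 1.46, 2.01 and 2.96 CPM in PAC, 1.93, 1.61 and 1.20 in RS, and 1.19, 1.55 and 1.23 in ES. Values of the 3 cell types overlapped. In mouse spermatids a shorter Kit transcript is known that starts within the gene, and counts per gene do not separate it from the full receptor. The log2 differences were -0.44 (SE 0.32, adjusted p = 0.231) from PAC to RS, -0.25 (SE 0.33, adjusted p = 0.566) from RS to ES, and -0.69 (SE 0.33, adjusted p = 0.0881) from PAC to ES. The last of these passed without PAC replicate 1 (-0.92, adjusted p = 0.0303) and with total counts alone as the scaling (-0.97, adjusted p = 0.0264).

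The most abundant genes of KIT signalling (Cbl, Pik3ca, Khdrbs1 and Plcg1) had higher mean FPKM than Kit in each cell type. Of 9 ligand and signalling genes, all tested, none rose and 8 fell from PAC to RS (median log2 -1.62), where 46.8% of NCBI genes fell. From RS to ES 7 rose and none fell (1.20), against 31.6% of NCBI genes that rose, and 3 were higher and 4 lower in ES than in PAC (0.23). Over the alternatives the number that rose from RS to ES ran from 3 to 9, and the median between PAC and ES from -0.11 to 0.53. The ubiquitin ligase gene Cbl was at 167 ± 16.7 CPM in PAC, 54.5 ± 2.04 in RS and 65.5 ± 7.86 in ES, and Pik3ca, a PI3-kinase catalytic subunit, at 103 ± 6.56, 33.2 ± 3.41 and 39.6 ± 3.16. Both fell from PAC to RS (Cbl log2 -1.62, adjusted p = 2.0e-06; Pik3ca log2 -1.64, adjusted p = 1.62e-06), and their values of 0.27 and 0.26 from RS to ES did not pass (adjusted p = 0.128 and 0.136). The RNA-binding adaptor gene Khdrbs1 (46.6 ± 8.11, 10.7 ± 1.67 and 20.6 ± 7.03 CPM) and the phospholipase gene Plcg1 (26.7 ± 4.26, 12.7 ± 0.526 and 18.4 ± 2.44 CPM) fell and then rose (Khdrbs1 log2 -2.13 and 0.96, adjusted p = 2.36e-05 and 0.00872; Plcg1 log2 -1.07 and 0.54, adjusted p = 0.000135 and 0.0193).

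The bHLH partners Sohlh1 and Sohlh2 gave close results. Sohlh1 (227631; chr2:25842995-25847248, minus strand) was at 1.34, 0.914 and 0.757 CPM in PAC, 0.934, 0.683 and 0.380 in RS, and 1.30, 1.91 and 0.804 in ES. Sohlh2 (74434; chr3:55182044-55209957, plus strand) was at 3.42, 5.56 and 2.16 CPM in PAC, 3.59, 2.87 and 3.56 in RS, and 5.40, 6.04 and 4.59 in ES. All 3 ES libraries lay above the RS libraries for Sohlh2, whereas for Sohlh1 ES replicate 3 lay within the RS range. From RS to ES the log2 differences were 1.01 for Sohlh1 (SE 0.44, adjusted p = 0.0821) and 0.68 for Sohlh2 (SE 0.30, adjusted p = 0.0858). Neither passed, but Sohlh1 passed without ES replicate 3 (1.26, adjusted p = 0.0408) and Sohlh2 passed in 5 of the 21 alternatives, DESeq2's size factors among them (0.82, adjusted p = 0.0451). From PAC to RS they differed by log2 -0.59 (SE 0.44, adjusted p = 0.237) and -0.15 (SE 0.30, adjusted p = 0.658), and from PAC to ES by 0.41 (SE 0.44, adjusted p = 0.425) and 0.53 (SE 0.30, adjusted p = 0.147). The last value, of Sohlh2, passed with upper-quartile factors (0.83, adjusted p = 0.0345), when the fit was limited to NCBI genes, and without PAC replicate 2 (0.92, adjusted p = 0.0159). In FPKM, Sohlh2 exceeded Sohlh1 in all 9 libraries, by 1.16 to 4.40 times.

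Of 9 other genes of differentiating spermatogonia, all tested, 1 rose and 4 fell from PAC to RS (median log2 -0.75), 5 rose and none fell from RS to ES (1.88), and 3 were higher and none lower in ES than in PAC (0.63). The retinoic acid receptor gene Rara was the 1 that rose from PAC (13.3 ± 0.858 CPM) to RS (27.6 ± 2.54; log2 1.05, adjusted p = 0.00125), and was at 38.9 ± 14.3 in ES. The de novo methyltransferase gene Dnmt3b fell from 3.72 ± 0.445 CPM in PAC to 0.636 ± 0.189 in RS (log2 -2.54, adjusted p = 1.59e-05) and rose to 2.44 ± 0.468 in ES (1.93, adjusted p = 0.000292). Crabp1, which encodes a retinoic acid-binding protein, moved likewise from 1.58 ± 0.638 to 0.479 ± 0.187 (log2 -1.72, adjusted p = 0.00494) and 1.93 ± 0.719 CPM (adjusted p = 0.00367). Dnmt3a was at 2.06 ± 0.201, 2.27 ± 0.419 and 3.24 ± 0.551 CPM and passed only between PAC and ES (log2 0.65, adjusted p = 0.0350).

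**Figure D4:**
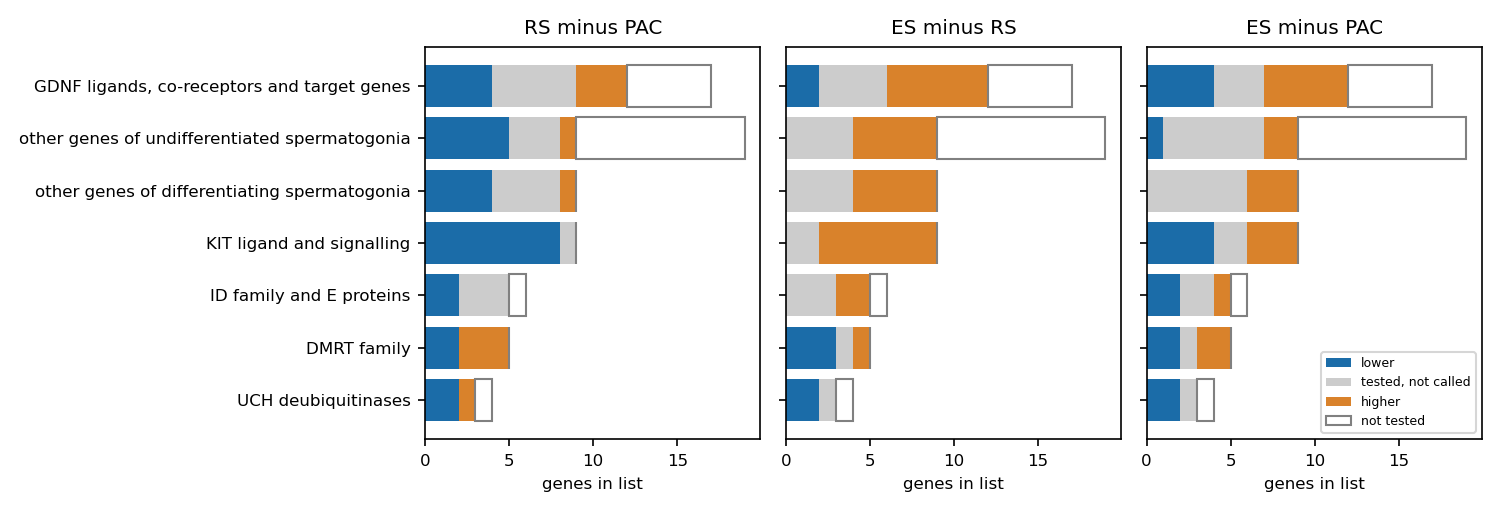
Stacked bars of the number of genes of each pathway list called lower (blue), tested and not called (grey), called higher (orange) and not tested (open), 1 panel per comparison. From PAC to RS, 8 of 9 KIT ligand and signalling genes fell, where 46.8% of NCBI genes fell. From RS to ES 7 of these 9 rose (3 to 9 over the alternatives), where 31.6% of NCBI genes rose.

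The doublesex-related members Dmrtb1 and Dmrt1 both fell from PAC to RS and went in opposite directions from RS to ES. Dmrtb1 (56296; chr4:107676288-107704011, minus strand), a DM-domain factor needed in mouse spermatogonia for an orderly entry into meiosis, fell at each step. It was at 700.9, 568.7 and 595.1 CPM in PAC, 437.9, 405.4 and 409.5 in RS, and 258.9, 268.5 and 257.6 in ES, so the cell types did not overlap. The fall from PAC to RS was 1.49-fold (log2 -0.57, SE 0.12, adjusted p = 0.00141) and that from RS to ES 1.60-fold (log2 -0.67, SE 0.12, adjusted p = 0.000953), which came to 2.38-fold between PAC and ES (log2 -1.25, SE 0.12, adjusted p = 6.28e-06). The first step did not pass with upper-quartile factors (-0.27, adjusted p = 0.0915) or when the fit was limited to NCBI genes (-0.18, adjusted p = 0.207). Against the median NCBI gene, at -0.46, the fall of Dmrtb1 from PAC to RS was small.

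Dmrt1 (50796; chr19:25505618-25604328, plus strand), which holds back meiosis in spermatogonia and is also made by Sertoli cells, was at 5.47, 5.70 and 2.56 CPM in PAC, 2.41, 2.13 and 1.64 in RS, and 7.03, 9.24 and 7.29 in ES. All ES libraries lay above all others, and PAC replicate 3 lay just above the RS libraries. It fell 2.22-fold from PAC to RS (log2 -1.15, SE 0.30, adjusted p = 0.00496) and rose 3.81-fold from RS to ES (log2 1.93, SE 0.30, adjusted p = 0.000363). The difference between ES and PAC (log2 0.78, SE 0.29, adjusted p = 0.0348) depended on single libraries and on the processing: it did not pass with total counts alone (0.50, adjusted p = 0.173) or in limma on FPKM (0.41 to 0.57 in 3 fits), nor without PAC replicate 3 (0.47, adjusted p = 0.103), RS replicate 2 (0.77, adjusted p = 0.0540) and ES replicate 2 (0.64, adjusted p = 0.124). In FPKM, Dmrtb1 stood above Dmrt1 by 112 to 266 times in PAC, 199 to 281 times in RS and 32.5 to 41.6 times in ES.

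All 5 other DMRT genes were tested, and 3 rose and 2 fell from PAC to RS (median log2 1.56), 1 rose and 3 fell from RS to ES (-0.72), and 2 were higher and 2 lower in ES than in PAC (-0.59). Dmrtc2, which acts in mouse pachytene spermatocytes, fell at each step like Dmrtb1, from 26.5 ± 4.40 CPM in PAC to 17.6 ± 1.14 in RS (log2 -0.59, adjusted p = 0.0115) and 10.7 ± 2.14 in ES (-0.72, adjusted p = 0.00701). Dmrta2 was highest in RS, at 8.92 ± 1.75, 26.2 ± 0.770 and 5.92 ± 0.258 CPM (log2 1.56, adjusted p = 1.14e-05, then -2.15, adjusted p = 5.90e-06). Dmrta1 had the shape of Dmrt1 with a wider range, at 1.47 ± 1.16, 0.230 ± 0.0433 and 14.7 ± 0.499 CPM (log2 -2.67, adjusted p = 0.00144, then 5.97, adjusted p = 1.45e-05). Dmrt3 rose from 1.43 ± 0.0807 to 4.36 ± 0.404 CPM (log2 1.60, adjusted p = 0.000261) and was at 4.15 ± 1.52 in ES.

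Markers of somatic cells and of other germ cell stages moved with several of these changes. From PAC to RS, 11 of the 12 tested Sertoli cell markers and all 9 Leydig cell markers fell, as did Zbtb16, Id4, Dmrt1 and Dmrtb1. In that step 8 of 9 round spermatid markers and all 9 elongating spermatid markers rose, as did Gfra1. So did 7 macrophage and blood markers and 4 peritubular and vascular markers. From RS to ES, all 12 Sertoli cell markers, all 9 Leydig cell markers and 7 macrophage and blood markers rose, as did Zbtb16, Id4, Dmrt1 and Uchl1. All 9 elongating spermatid markers rose too. Of the 9 round spermatid markers, 6 fell and 2 rose in that step, in which Gfra1 and Dmrtb1 fell. The Sertoli cell factor Sox9 averaged 0.256 CPM in PAC, 0.0396 in RS and 1.83 in ES, and the abundant Sertoli cell gene Clu 27.1, 2.15 and 99.99. Within PAC, the Sertoli cell sum was 161, 111 and 64.4 CPM in replicates 1, 2 and 3. Id4 and Sohlh1 were ordered in the same way, and Zbtb16 and Kit in the reverse way. The other members had neither order, with Dmrt1 and Sohlh2 lowest in replicate 3. The Leydig cell sum was 140, 106 and 143 CPM in these replicates, an order that Id4 did not share. Across cell types the order of the Leydig cell sum, highest in PAC and lowest in RS, was that of Id4. The Sertoli cell sum was instead highest in ES. Of the 10 pachytene markers, 9 fell from PAC to RS, and 5 rose and 1 fell from RS to ES, where they summed to 777 to 1066 CPM. In mean CPM, all markers of that list except Hspa2 and Ccna1 had the order of Id4 too. Among those with that order were Tex101 (251, 12.4 and 46.8 CPM in PAC, RS and ES) and Piwil1 (163, 7.26 and 31.1 CPM). Hspa2 averaged 666, 374 and 298 CPM, and Ccna1 305, 337 and 177 CPM. The part of any of these cells in the changes of the 10 members was not tested.

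**Figure D5:**
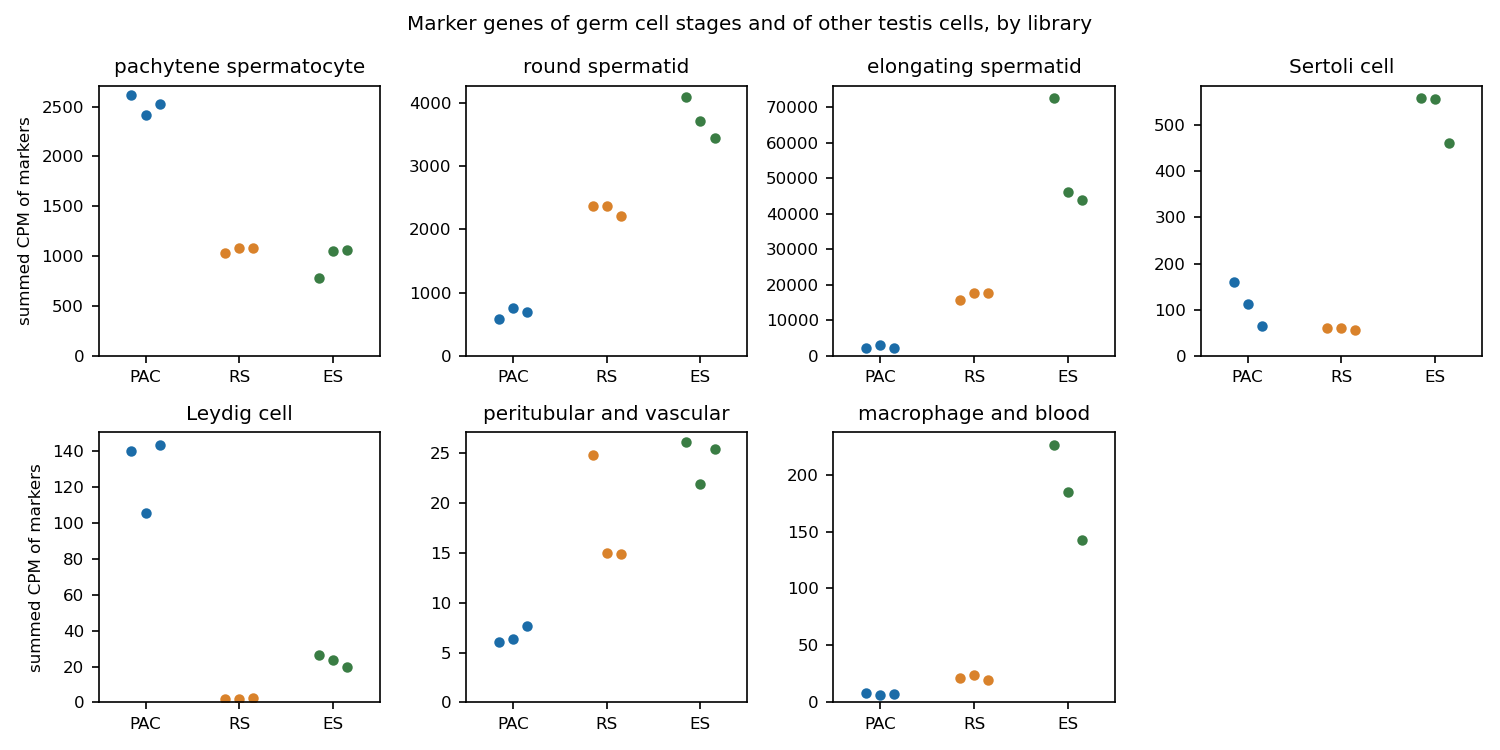
Summed CPM of each marker list in the 9 libraries (points) by cell type, 1 panel per list with its own linear axis from 0. The Sertoli cell sum is highest in ES (460 to 559 CPM), and the Leydig cell sum is highest in PAC (106 to 143 CPM) and lowest in RS (2.10 to 2.25 CPM).

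For each member, the genes with the most similar profile were found among 14945 tested NCBI genes, as the smallest root mean square difference of centred log2 CPM over the 9 libraries. The closest match of all was to Dmrtb1, where Hap1 differed by 0.0314 and Strada by 0.0394 on the log2 scale. Hap1 averaged 75.5, 52.3 and 32.3 CPM in PAC, RS and ES. The profile of Gfra1 was nearest to those of Fh1, the fumarate hydratase gene (0.0878), and Polr3f, an RNA polymerase III subunit gene (0.114). Id4 was nearest to Gm8229 (0.113) and to the glycosyltransferase gene B3galnt1 (0.116), which averaged 30.1, 2.05 and 5.35 CPM. Uchl1 was nearest to Tmem65 (0.156) and the kinase gene Rps6ka3 (0.195), Dmrt1 to Golm1 (0.192) and Cox7b (0.194), and Kit to Atad5 (0.0984) and Camk1d (0.183). The nearest genes were Wdr76 (0.164) and Nkap (0.232) for Sohlh1, Rasa4 (0.168) and Kcnh2 (0.188) for Sohlh2, and Slc37a3 (0.210) and Blmh (0.258) for Zbtb16. Ret, with its few reads, had no close match (Rell1 at 0.435 and C1ra at 0.452).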

How the data were processed

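RNA from 3 libraries each of PAC, RS and ES was sequenced. Per the labels' extract protocol, libraries were primed with random hexamers and kept strand with dUTP; the use of strand in counting is not given in the sources used here. HISAT2, StringTie and GRCm38.p6 are named, without versions, in the submitters' processing notes. The authors deposited estimated counts, of which 18.8% of values were not whole (1 of the 90 of the members), and FPKM of the same features. Counts were rounded for the tests. RefSeq features overlapping a member (Gm46650, Gm10007, A330033J07Rik, 1700047F07Rik and Uchl1os) had at most 5 counts in a library.

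Features were kept by edgeR's filterByExpr (minimum count 10; 26030 kept, 24463 removed), scaled by TMM and fitted with the robust quasi-likelihood model over all 9 libraries (two-sided tests, common biological coefficient of variation 0.24), with Benjamini-Hochberg adjustment. In all, 21 alternatives were run. The FPKM alternatives used limma on log2(FPKM + 0.1) or log2(FPKM + 1), which understates changes of low genes. Replicate numbers were not treated as pairs, since the labels only number the replicates. The deviations of same-numbered libraries correlated at -0.0397 to 0.273. The highest values were between ES and PAC, at 0.185 in replicate 1 and 0.273 in replicate 3, so pairing is not excluded there. Standard errors were derived from the log2 change and the F statistic of that quasi-likelihood fit, so they include the spread between libraries. The floor of 3 counts is a fixed count and carries no estimate of spread. Software was Python 3.11.15 with pandas 2.3.3, and R 4.3.3 with DESeq2 1.42.0, edgeR 4.0.16 and limma 3.58.1. Named were all members, up to 4 tested genes of each list with the highest mean CPM, and the 2 nearest profiles of each member. Untested genes with few reads, Tssk6, Tex101, Piwil1, Hspa2, Ccna1 and the somatic markers were named after their values were seen. The members and lists were chosen with earlier results of these data known.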

Additional observations from a re-analysis of the deposited data

How the results depend on the processing

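Under 21 alternatives the 10 members gave 612 values: 562 kept their direction and their side of the threshold, 16 lost it, 17 gained it and 17 changed sign, none of these called in either fit. The calls for Id4 (all 3 comparisons), Gfra1 and Dmrt1 (PAC to RS and RS to ES), Uchl1 (both against ES) and Dmrtb1 (both against ES) passed in all alternatives. The number of members higher in ES than in PAC (2) was 4 with upper-quartile factors or NCBI genes alone, 1 with total counts alone and on FPKM with pseudocount 0.1, pseudocount 1 or no filter, and 1 to 3 when a replicate was left out. It was also above 2 with DESeq2's size factors, under which Gfra1 passed.

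Sign changes from PAC to RS were seen with upper-quartile factors and NCBI genes alone for Ret (log2 0.16 and 0.25; -0.31 to 0.33 with a replicate left out), Sohlh2 (0.15 and 0.23; -0.42 to 0.26) and Uchl1 (0.22 and 0.29; -0.26 to 0.0615). For Zbtb16 between PAC and ES the log2 values were 0.0096 with DESeq2's size factors, 0.0061 with DESeq2's test, 0.23 with upper-quartile factors, 0.18 with NCBI genes alone, 0.13 with only these 2 cell types, and -0.50 to 0.20 with a replicate left out.

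These scalings moved all features: from PAC to RS the median shifted by 0.31 with upper-quartile factors and 0.39 with NCBI genes alone, from RS to ES by -0.33 with total counts alone, -0.14 with NCBI genes alone and 0.14 with DESeq2's size factors, and from PAC to ES by 0.30, 0.25 and -0.28 with upper-quartile factors, NCBI genes alone and total counts alone. Calls from RS to ES were 52.6% higher, or 34.4% with total counts alone, and from PAC to ES 47.6%, or 57.9% with upper-quartile factors. With the replicate block, Sohlh1 also passed from RS to ES (log2 1.03, adjusted p = 0.0484 by edgeR's quasi-likelihood test), and no other member's call changed. Of 42 counts of genes called in the pathway lists, 24 moved by over 1.5 times in at least 1 alternative, and 8 of the 21 list medians took both signs. The causes were not tested. Depth limits Ret and Zbtb16 most, with 20 counts or fewer in every library.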
